A study of Caenorhabditis elegans with 15 samples.

Results

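The RNA of dissected intestines from wild type Caenorhabditis elegans was described in 5 libraries, which are all the wild type libraries among the 15 of the series. They were chosen by their labels alone, as wild type replicates 1 to 5, and numbered as libraries 1 to 5. The other 10 libraries, of 2 gas-1(fc21) groups, are not used here. The worms were 5 days old, counted from bleaching onto plates seeded with OP50, the Escherichia coli strain that serves as laboratory food. Each library came from the total RNA of 20 intestines. Libraries were made by Smart-seq2, a method that copies polyadenylated transcripts along their whole length and amplifies them, and that here kept no strand information. No label says that the 5 libraries came from separate cultures, so their spread may be technical. Intestines of a sample were pooled, so nothing here describes a single animal or a single cell.

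The intestine of this worm is a tube of large epithelial cells that digests bacteria, stores fat, meets toxins and pathogens, and makes yolk. In adult hermaphrodites it secretes the vitellogenins, yolk proteins that cross the body cavity and are taken up by growing oocytes. GATA factors, led by elt-2 with elt-7, set the identity of its cells, and digestive enzymes, lysozymes and lectins are among its usual products.

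Total estimated counts were 13093211 in library 1, 22357141 in library 2, 40045140 in library 3, 12182697 in library 4 and 12323971 in library 5. Library 3 was thus the deepest, and libraries 1, 4 and 5 were close in depth. A gene was taken as detected at 1 TPM or more, where TPM, the usual measure of transcript abundance, is a level per base of transcript length that sums to the same total in each library. Detected genes numbered 11203 in library 1, 10622 in library 2, 10142 in library 3, 10715 in library 4 and 10273 in library 5. The deepest library therefore had the fewest detected genes, and when each library was thinned to the depth of the smallest the numbers were 11187, 10555, 9978, 10707 and 10270. In all, 8450 genes were detected in all 5 libraries, and 8217 of these were among the 20191 protein coding genes. A further 4960 protein coding genes had 0 counts in every library. Detection in exactly 1 library was seen for 2144 genes.

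Tissue markers were read first, as a check of the label. Of 23 intestine markers, 21 were detected in all 5 libraries, and their summed level was 10204, 15285, 16597, 15534 and 12546 TPM in libraries 1 to 5. In this sum library 1 was the lowest and library 3 the highest, an order that depends on the scale, as given below. The list is led by cpr-6, a cathepsin B-like protease, at 5759 ± 1284 TPM, asp-1, an aspartyl protease of the gut, at 3521 ± 663 TPM, and mtl-2, a metallothionein, at 2374 ± 485 TPM (SD, n = 5, as for all errors here). Structural and surface genes of the gut were lower, with act-5, the actin of the microvilli, at 548 ± 84.2 TPM and vha-6, the apical proton pump subunit, at 315 ± 88.9 TPM. The carboxylesterase ges-1, a classical gut marker, was at 35.2, 74.0, 80.2, 69.2 and 68.9 TPM, lowest in library 1.

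Markers of reproductive tissue were present beside those of the intestine. The 23 markers of oocytes and early embryos were all detected in all 5 libraries. They summed to between 12637 TPM in library 4 and 16179 TPM in library 1, a sum like that of the intestine list. The median oocyte marker was higher, at 366 TPM against 65.5 TPM for the intestine list, whose sum lies mostly in cpr-6, asp-1 and mtl-2. Eggshell genes led the oocyte list. The eggshell proteoglycan gene cpg-2 was at 2174 ± 518 TPM, the eggshell layer genes perm-2 and perm-4 were at 2129 ± 871 and 1870 ± 718 TPM, and cpg-1, another proteoglycan gene, was at 1519 ± 390 TPM. All 27 germline markers were detected in every library and summed to between 2073 TPM in library 4 and 3604 TPM in library 5. Their highest members were cgh-1, a DEAD-box RNA helicase, at 701 ± 110 TPM, wago-1, an Argonaute, at 291 ± 64.3 TPM, and glh-1, a Vasa-like helicase of germ granules, at 283 ± 59.0 TPM. Sperm genes were near 0. Their 24 markers summed to between 19.1 and 31.8 TPM, 13 of them, gsp-3, peel-1 and spe-11 included, had 0 counts in every library, and the 31 major sperm protein genes held 0.00112% of TPM.

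Markers of muscle and cuticle varied widely between libraries. The 21 body wall muscle markers summed to 3706, 1972, 369, 3910 and 960 TPM in libraries 1 to 5, a 10.6-fold range. The 16 markers of hypodermis and cuticle summed to 11198, 4506, 233, 8439 and 1576 TPM, a 48.1-fold range. With library 3 left out, the log2 range of the cuticle sum was 2.83 in place of 5.59, and that of the muscle sum 2.03 in place of 3.41. As the mean of log2(TPM + 1) over the list, which a few high genes do not lead, the cuticle range was 1.62 and the muscle range 2.42. On that measure the oocyte range was 0.85, against 0.36 for its sum, and the intestine range was 0.58, against 0.70 for its sum. In the sums of cuticle and of muscle markers libraries 1 and 4 were high, library 2 was next, library 5 was lower and library 3 was lowest. Within the cuticle list bli-1 and rol-6, collagens of larval and adult cuticle, had 0 counts in every library, while col-140, col-119 and col-93 made up most of the sum. Neuronal markers summed to between 114 TPM in library 3 and 294 TPM in library 1, pharyngeal markers to between 4.64 TPM in library 2 and 68 TPM in library 1, and the 5 excretory cell markers to between 1.22 and 15.5 TPM. These low sums also had wide ranges, 14.7-fold for pharynx and 12.7-fold for the excretory cell. In bulk RNA of this kind, fewer cells of a type and less RNA per cell cannot be told apart.

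**Figure D1:**
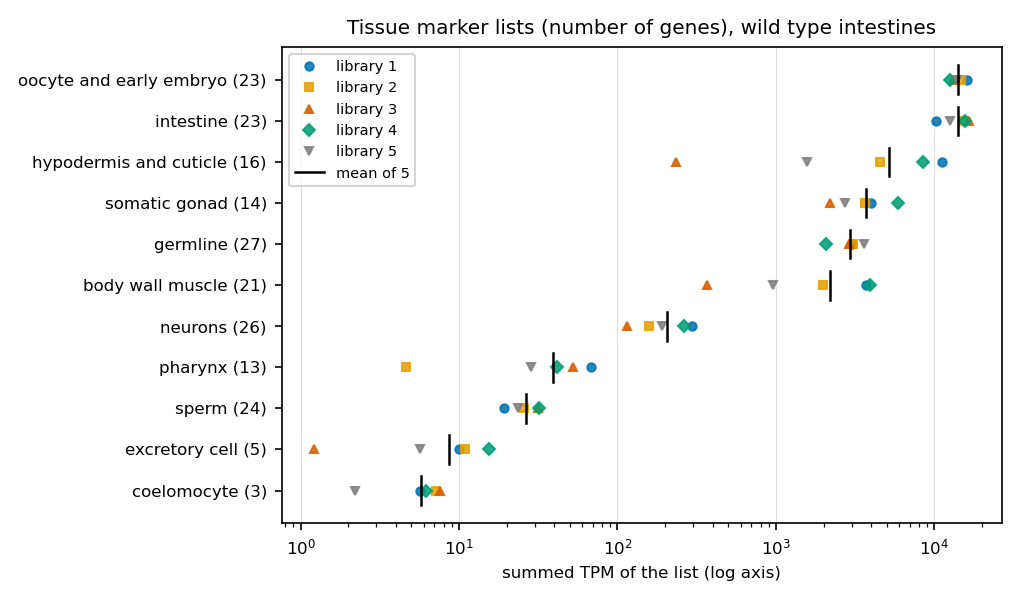
Summed TPM of 11 tissue marker lists (log axis) in each of the 5 wild type libraries, with the number of genes in each list and a black bar at the mean. Oocyte and intestine sums lie within 1.28-fold and 1.63-fold over the libraries, and the cuticle sum spans 48.1-fold.

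Transcript levels were concentrated in few genes. The smallest set of genes that together held 50% of TPM numbered 132, 127, 82, 73 and 126 genes in libraries 1 to 5, and 110 for the mean of the 5. Libraries 3 and 4, which were also highest in yolk transcripts, were the most concentrated. For 90% of TPM the mean profile needed 2984 genes. Genes with a mean level of 1000 TPM or more numbered 144, of which 136 are protein coding, and held 53.8% of all TPM. The 981 genes from 100 to 1000 TPM held 24.7%, the 5403 genes from 10 to 100 TPM held 19.6%, and the 4373 genes from 1 to 10 TPM held 1.74%. In estimated counts, which also grow with transcript length, the concentration was stronger, and 50% of counts came from 88, 51, 15, 10 and 65 genes.

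Protein coding genes took 85.8% ± 0.834 of TPM and 86.6% ± 1.37 of estimated counts. Ribosomal RNA took 6.48% ± 0.998 of TPM and 12.9% ± 1.43 of counts. Most of its TPM was rrn-3.1, the large-subunit ribosomal RNA, at 49337, 49318, 67041, 63413 and 45264 TPM, with libraries 3 and 4 above the other 3. The small-subunit copies rrn-1.1 and rrn-1.2 had equal counts in every library and a mean of 1400 TPM each. Reads of near-identical copies cannot be told apart, so the level of either copy is uncertain.

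The gene of highest mean TPM was C36C9.10, a non-coding RNA of 135 bases on chromosome X from 1681752 to 1681886 (WBcel235, plus strand, Ensembl annotation). It stood at 73430, 47399, 49333, 52261 and 69489 TPM, with libraries 1 and 5 above the other 3, and made up most of the 6.61% ± 1.33 of TPM in the ncRNA class. In estimated counts it held only 0.242%. The gap comes with its length, because TPM divides each count by an effective length that was typically 74 bases below the target length. Targets under 200 bases numbered 24301, and each count of a very short RNA weighs more in TPM because its effective length is small. The shares of snoRNAs (0.364% ± 0.0370 of TPM and 0.00369% of counts) and tRNAs (0.185% ± 0.0328 of TPM and 0.000170% of counts) show the same gap.

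Other non-coding classes were small. Pseudogenes held 0.436% ± 0.0537 of TPM, led by F07H5.5 at 288 ± 26.6 TPM and by prg-2, an annotated pseudogene related to the Piwi gene prg-1, at 111 ± 13.7 TPM. The snoRNA C14E2.12 was at 295 to 614 TPM and mir-354, whose hairpin overlaps the ribosomal protein gene rps-20, at 528 ± 95.3 TPM. Counts without strand cannot separate such overlapping or antisense genes. Among long intergenic RNAs, linc-168 was at 176 ± 79.1 TPM, linc-7 at 112 ± 22.7 TPM and lep-5, an RNA known for timing developmental transitions, at 19 ± 2.06 TPM. All 15363 piRNA targets had 0 counts in every library. The piRNA targets are 21 bases long and the libraries copy polyadenylated transcripts, so these counts do not show whether piRNAs were present.

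Yolk genes headed the protein coding genes. The 6 vitellogenins held 5.24%, 7.91%, 10.7%, 11.4% and 7.40% of TPM in libraries 1 to 5. Library 1 was lowest and library 4 highest, a 2.17-fold range, with libraries 3 and 4 above libraries 2 and 5. The highest, vit-6, was at 15073, 22293, 29626, 32037 and 19529 TPM, and it ranked first among all protein coding genes. Next came vit-2 at 18725 ± 5485 TPM and vit-5 at 18150 ± 5197 TPM, then vit-3 at 10530 ± 3266 TPM, vit-4 at 9880 ± 2925 TPM and vit-1 at 4182 ± 1208 TPM. The main yolk transcripts are 4870 to 5088 bases long, and the same genes held 27.4% ± 6.11 of estimated counts.

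The yolk genes kept their proportions while their total moved. The ratio of vit-2 to vit-6 in TPM lay between 0.767 and 0.824 over the 5 libraries, and that of vit-1 to vit-6 between 0.169 and 0.188. The ratio of vit-4 to vit-6 lay between 0.407 and 0.438. Across libraries these ratios thus moved 1.07-fold to 1.12-fold, while vit-6 itself moved 2.13-fold. The ratios of vit-3 and vit-5 moved somewhat more, by 1.24-fold and 1.14-fold. Sequence similarity among vit-3, vit-4 and vit-5 makes the split of reads between them uncertain.

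Digestive and defence enzymes formed the next group. Cathepsin-type cysteine proteases, which cut proteins in lysosomes and the gut lumen, held 2.76% ± 0.618 of TPM, with 11 of 12 genes detected in all 5 libraries. The cathepsin B-like gene cpr-9 was at 4982, 8945, 9806, 10070 and 7996 TPM, lowest in library 1. Its relative cpr-5 was at 4661 ± 1444 TPM, and cpl-1, a cathepsin L, was at 2297, 3903, 3840, 3835 and 3511 TPM, again lowest in library 1. Aspartyl proteases held 1.81% ± 0.353 of TPM, led by asp-3 at 4090 ± 973 TPM and followed by asp-1 and by asp-4 at 3050 ± 593 TPM. For each of asp-1, asp-3 and asp-4 library 1 was the lowest.

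Lysozymes, which break bacterial cell walls, held 2.56% ± 0.552 of TPM. A single gene made up 74.9% of that share. This was ilys-5, an invertebrate-type lysozyme gene on chromosome X from 6533490 to 6536840 (minus strand), at 14437, 19382, 23265, 23614 and 15203 TPM. It ranked second among protein coding genes in the mean, with libraries 1 and 5 below the other 3. Another lysozyme, lys-4, was at 4606 ± 1342 TPM, highest in library 3, and lys-8 was at 518 ± 107 TPM. C-type lectins, sugar-binding proteins often secreted against bacteria, held 1.67% ± 0.212 of TPM, although only 53 of 240 genes were detected in all 5 libraries and 99 had 0 counts in every library. Their leading gene clec-209 was at 2837 ± 510 TPM, and F56A4.2 had equal counts in each library, so neither copy has a level of its own. The lectins clec-50 and clec-87 were at 2313 ± 460 and 2260 ± 637 TPM. Saposin-like proteins, which act on membranes, held 0.322% ± 0.0686 of TPM with spp-5 at 635 ± 95.9 TPM.

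Protein synthesis genes were as abundant as yolk in TPM and much steadier. The cytosolic ribosomal proteins held 9.32%, 7.65%, 7.99%, 8.16% and 9.98% of TPM, highest in library 5 and lowest in library 2. After the TMM scaling described below, library 4 was instead highest for 60 of the 77 ribosomal protein genes read on that scale. Of the 83 genes of the family, 82 were detected in all 5 libraries. The highest were rpl-3 at 3260 ± 390 TPM, rpl-12 at 3099 ± 295 TPM and rpl-7A at 3024 ± 241 TPM, and no single gene held more than 3.78% of the family. All 39 translation factor genes were detected in every library and held 2.01% ± 0.216 of TPM. Elongation factor 1A, eef-1A.1, alone made up 40.2% of that, at 8022, 8441, 7720, 6901 and 9406 TPM. The elongation factor subunits eef-1G and eef-1B.1 were at 3219 ± 359 and 2796 ± 305 TPM. The 32 aminoacyl-tRNA synthetase genes, all detected in every library, together held 0.256% ± 0.0410.

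**Figure D2:**
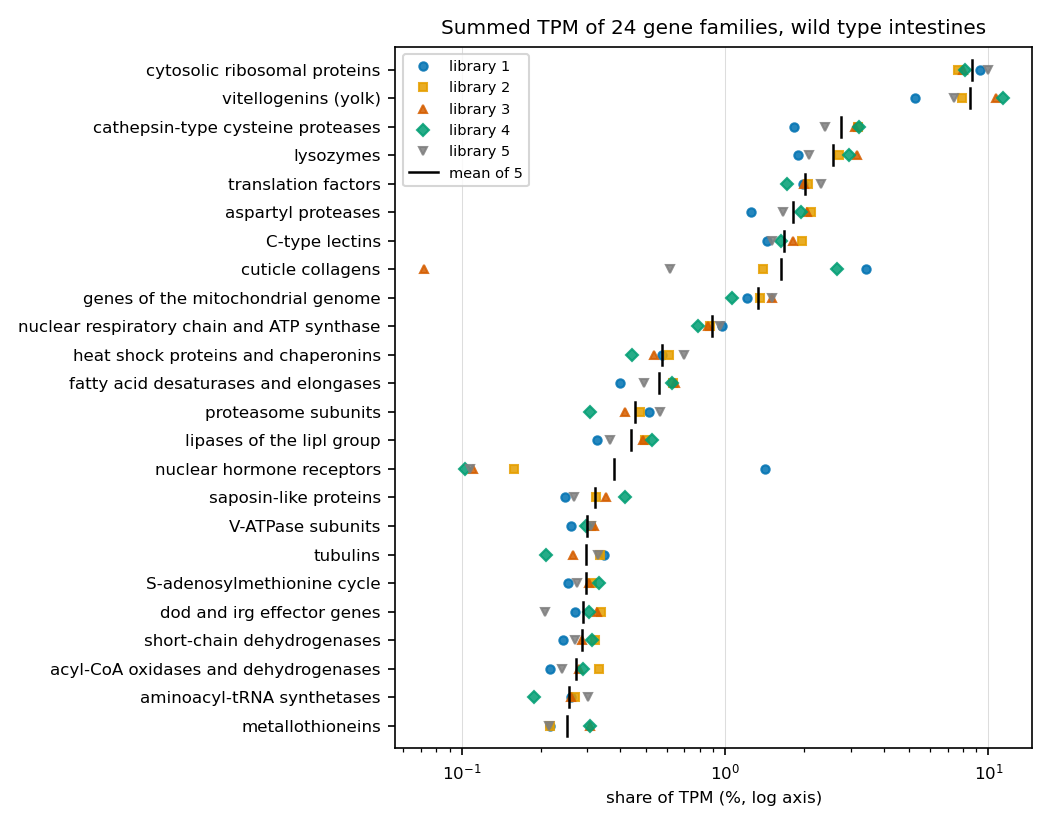
Share of TPM (percent, log axis) of the 24 gene families of highest mean level in the 5 wild type libraries, with a black bar at the mean. Ribosomal protein and yolk genes lead at 8.62% and 8.52%, cuticle collagens span 47.6-fold, and the nuclear hormone receptors stand apart in library 1.

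Nuclear genes of respiration were also steady, and those of the mitochondrial genome less so. The 12 protein coding genes of the mitochondrial genome held 1.33% ± 0.192 of TPM, with a 1.42-fold range over libraries. Of this, ctc-1, a core subunit of cytochrome c oxidase, made up 31.5% at 4198 ± 541 TPM. Another oxidase subunit, ctc-3, was at 2748 ± 378 TPM, and nduo-6, a subunit of complex I, was at 2536 ± 622 TPM. Nuclear genes of the respiratory chain and ATP synthase held 0.893% ± 0.0748, with 72 of 74 detected in all 5 libraries and a 1.23-fold range over libraries. The ATP synthase subunit atp-1 was at 1433, 1589, 1632, 1513 and 1504 TPM, and atp-2 at 1032 ± 69.4 TPM. The ADP/ATP carrier ant-1.1, of the inner mitochondrial membrane, was at 4070, 4313, 4043, 3849 and 3746 TPM. Its libraries lay close together. The complex I subunit gas-1, the gene mutated elsewhere in the series, was at 81.5, 79.1, 79.3, 77.5 and 61.6 TPM, and library 5 was below the other 4.

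Among genes of fat metabolism, the lipl lipases and the acyl-CoA oxidases and dehydrogenases took most of their level from 1 member each. The lysosomal-type lipase gene lipl-5 was at 3211, 4865, 4811, 5194 and 3580 TPM and made up 98.2% of the lipl group. Desaturases and elongases, which build unsaturated and long-chain fatty acids, held 0.560% ± 0.110 of TPM. This was spread over more members, with 13 of 16 genes detected in all 5 libraries and 26.5% in the highest. Their highest members were fat-2, a desaturase, at 1484 ± 179 TPM and elo-5, an elongase of branched-chain fatty acids, at 1405 ± 495 TPM. The acyl-CoA dehydrogenase acdh-1, which acts in propionate breakdown, was at 1832 ± 400 TPM and made up 67.4% of the acyl-CoA oxidases and dehydrogenases. In the methionine cycle, ahcy-1, which removes S-adenosylhomocysteine, was at 1565 ± 168 TPM and sams-1, a synthetase of S-adenosylmethionine, at 236 ± 66.4 TPM.

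Detoxification families had many genes and modest totals. The cytochrome P450s held 0.182% ± 0.0349 of TPM with 38 of 75 genes detected in all 5 libraries, led by cyp-35A2 at 428 ± 121 TPM and cyp-35C1 at 401 ± 85.6 TPM. UDP-glucuronosyltransferases held 0.164% ± 0.0399 with 38 of 67 genes detected, led by ugt-22 at 225, 382, 366, 364 and 383 TPM, where library 1 was the lowest. Glutathione S-transferases held 0.144% ± 0.00958, led by gst-10 at 254 ± 29.6 TPM and gst-27 at 251 ± 48.2 TPM. Carboxylesterases held 0.0549% ± 0.0110, led by cest-25 at 136 ± 25.4 TPM. Of the cest-2 genes, cest-2.2, which the series overexpresses in another group, was at 21.6, 40.9, 55.6, 36.7 and 29.1 TPM in these wild type libraries, cest-2.1 was at 16.4 ± 4.44 TPM, and cest-2.3 had counts in library 4 only.

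Several of the most abundant protein coding genes belong to none of the families above. Among them F23A7.4 was at 14264 ± 1833 TPM and C17F4.7 at 12101 ± 1761 TPM. The gene dct-16, named for its dependence on the FOXO factor DAF-16, was at 10298 ± 2560 TPM, and F23A7.8, a neighbour of F23A7.4 on chromosome X, was at 9154 ± 1755 TPM. The proteins of pud-1.2 and pud-2.1 are known to be more abundant in daf-2 mutants, and these genes were at 5266 ± 1865 and 4108 ± 1538 TPM, each lowest in library 1 and highest in library 4. The small heat shock protein gene sip-1 was at 6515, 5616, 5607, 3120 and 5333 TPM and the nucleoside diphosphate kinase gene ndk-1 at 6341, 4892, 4762, 3790 and 4869 TPM. Both were highest in library 1 and lowest in library 4, the reverse of the yolk genes. In the 100 protein coding genes of highest mean TPM, which held 37.0% of TPM, 24 were ribosomal protein genes, 6 yolk genes, 6 cathepsins and 5 aspartyl proteases, and 31 belonged to none of the 40 families.

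**Figure D3:**
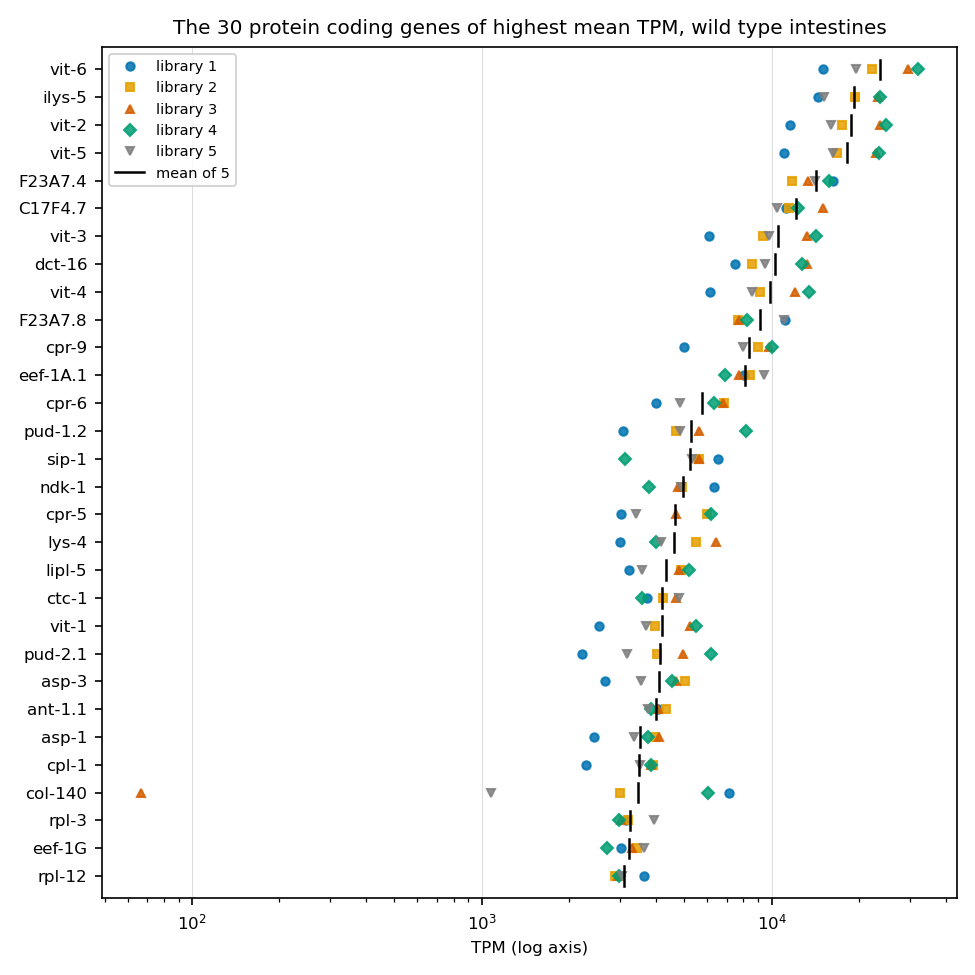
TPM (log axis) of the 30 protein coding genes of highest mean TPM in the 5 wild type libraries, with a black bar at the mean. Yolk genes are lowest in library 1, and col-140 spans from 66.7 TPM in library 3 to 7122 TPM in library 1.

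The order of these 30 genes is only loosely fixed by 5 libraries. Of the 29 pairs of neighbours in the order, 1 pair had ranges that did not overlap, eef-1A.1 above cpr-6. The same gene of a pair was higher in all 5 libraries in 2 pairs, that one and vit-6 above ilys-5. The remaining neighbours do not differ beyond their spread.

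Transcription regulators known in the gut were read at their own levels. The GATA factor elt-2 was at 10.7, 12.1, 14.9, 9.93 and 10.7 TPM and its relative elt-7 at 20.4, 46.3, 35.2, 25.2 and 22.5 TPM. Both were detected in every library, and elt-7 was highest in library 2. Higher were xbp-1, the factor of the unfolded protein response, at 302 ± 74.7 TPM, skn-1, the Nrf-like factor of the oxidative stress response, at 106 ± 16.6 TPM, and daf-16 at 60.1 ± 9.36 TPM. The bZIP factor zip-2, known from pathogen responses, was at 59.2, 104, 67.1, 65.7 and 64.1 TPM, highest in library 2. The fat and nutrient regulators nhr-68, nhr-49, sbp-1 and hlh-30 were at 69.5 ± 11.5, 51.3 ± 9.20, 22.5 ± 4.72 and 20.2 ± 3.83 TPM. Of the 30 regulators listed, 25 were detected in all 5 libraries, and blmp-1, lin-29, mab-3 and nhr-25 had means below 1 TPM.

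One regulator stood apart. The nuclear receptor gene nhr-80, known for controlling fatty acid desaturases, was at 13156, 90.8, 21.8, 18 and 14.8 TPM. Library 1 was far above the other 4, and among these library 2 was the highest. Nearly all of this, 99.8% of the mean, was assigned to transcript H10E21.3b.1 of the gene, on chromosome III from 11985 to 14869 (minus strand). In library 1 that transcript took 188602 estimated counts, against 1772 in library 2 and 185 in library 5. Whether the reads of library 1 come from this transcript was not tested, since only estimated counts were read, and without library 1 the mean of nhr-80 was 36.4 TPM. Of the 268 nuclear hormone receptor genes, 107 were detected in all 5 libraries. They held 1.41% of TPM in library 1 and 0.103% to 0.158% in the other 4, and without nhr-80 the mean over the 5 libraries was 0.113% ± 0.0206. Other genes moved with nhr-80 in having a level in library 1 that the other 4 lacked, as described below, and what sets these levels was not tested.

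Protein coding TPM was spread unevenly over the chromosomes. Chromosome X held 19.7% ± 3.03 of it, V held 19.3% ± 1.15, IV 17.8% ± 0.343, I 15.1% ± 1.59, III 15% ± 1.98 and II 11.6% ± 0.630. The share of X rests on yolk, since vit-1 to vit-5 lie there. Without the 6 yolk genes X held 13.9% ± 1.76 and V, at 21.5% ± 1.86, was the highest. The chromosomes also differ in gene number, and V has the most. Coding genes numbered 4993 on V, 3499 on II, 3284 on IV, 2891 on I, 2757 on X and 2669 on III. The shares are therefore not levels per gene. Detection in all 5 libraries was seen for 28.6% of the coding genes of V, 36.4% of those of X and 56.5% of those of III. The median level of detected genes was 11.8 TPM on X and 24.4 to 31.1 TPM on the other 5 nuclear chromosomes.

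Spread between the 5 libraries was measured as the SD of log2 CPM, where CPM is the count of a gene as a share of its library, after TMM scaling, among the 3521 genes with a mean CPM of 30 or more. The median SD was 0.26, against a median counting error of 0.04 in the lowest level class, from 30 to 100 CPM, and less in the higher ones. Genes with an SD of 1 or more numbered 95, or 2.70%. Across these 3521 genes the log2 CPM of library pairs correlated at r = 0.762 (libraries 1 and 3) to r = 0.933 (libraries 1 and 2), a description only, since genes are not independent. A first principal component held 60.5% of the variance, with scores of 17.1, 6.72, -36.5, 21.9 and -9.27 for libraries 1 to 5. Library 3 lay at one end of it and library 4 at the other. The TMM factors of libraries 1 to 5 were 1.22, 1.05, 0.882, 0.773 and 1.15. An order of libraries in TPM can therefore change in TMM-scaled CPM. On that scale library 4 was highest for 60 of 77 ribosomal protein genes and for 12 of 16 intestine markers. In summed TPM library 5 was highest for ribosomal proteins and library 3 for intestine markers. Orders given in TPM elsewhere describe that scale.

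Cuticle collagens and muscle genes were among the variable genes. Of the 23 cuticle collagens in the set, 22 had an SD of 1 or more, with a median of 2.59, and so did 10 of 12 body wall muscle markers, with a median of 1.63. Most of the 95 genes belong to neither list. An SD of 1 or more was found for 0 of 6 yolk genes, 0 of 16 intestine markers, 0 of 23 oocyte markers, 0 of 22 germline markers and 0 of 77 ribosomal proteins. With 2.70% of all 3521 genes at that limit, counts of 0 in lists of this size say little. The median SDs were 0.60 for yolk genes, 0.48 for intestine markers and 0.30 for oocyte markers, all above the 0.26 of all genes, and 0.23 for germline markers and 0.20 for ribosomal proteins, below it.

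**Figure D4:**
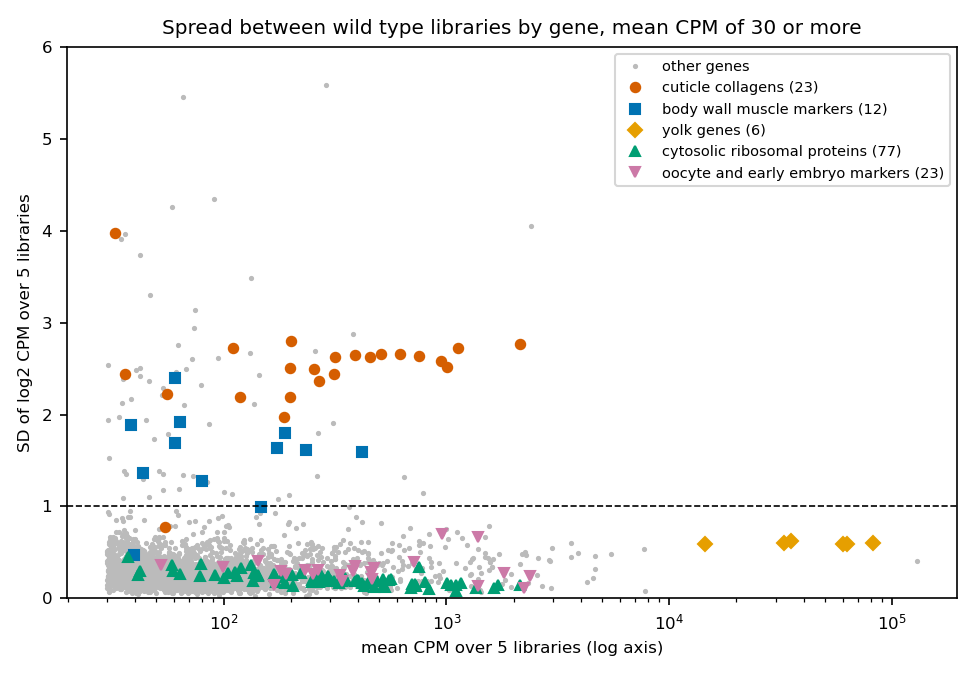
SD of log2 CPM over the 5 wild type libraries against mean CPM (log axis) for 3521 genes, with the dashed line at an SD of 1. Collagens have a median SD of 2.59 and ribosomal proteins one of 0.20.

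Cuticle collagens, which form the outer coat made by the skin, held 3.44%, 1.40%, 0.0722%, 2.67% and 0.618% of TPM. Libraries 1 and 4 were highest and library 3 was lowest. The largest, col-140, was at 7122, 3003, 66.7, 6034 and 1075 TPM. The collagen gene col-184 was at 3466, 1630, 34.6, 3086 and 874 TPM, and col-101 at 2773, 1230, 40.4, 2676 and 622 TPM, in the same order of libraries. Of 174 collagen genes, 28 were detected in all 5 libraries and 42 had 0 counts in every library.

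Muscle genes moved with the collagens. The troponin C gene pat-10 was at 1698, 899, 132, 1814 and 396 TPM, and act-4, a muscle actin, at 907, 524, 138, 1183 and 280 TPM. The other actins did not follow to that extent, with act-2 at 726, 735, 555, 466 and 783 TPM and the gut actin act-5 at 425, 536, 660, 549 and 569 TPM. Actin genes are near copies of each other, so the split of reads between them is uncertain. In TMM-scaled CPM the myosin heavy chain gene unc-54 was at 265, 169, 17, 412 and 82.1, the paramyosin gene unc-15 at 228, 117.3, 22.5, 433 and 66.6, and the troponin genes unc-27 and tnt-2 each had library 3 lowest and library 4 highest. The basement membrane collagens emb-9 and let-2, made largely by muscle and gonad, were at 114, 97.8, 34.1, 254 and 46.4 and at 184, 150, 55.7, 399 and 86.8 CPM.

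The 95 variable genes shared an order of libraries. Library 3 was lowest for 79 of them (83.2%), against 7.61% of all 3521 genes, and 72 had libraries 1, 2 and 4 above library 5 and library 5 above library 3 (75.8%, against 3.49% of all). In TMM-scaled CPM library 4 was highest for 75 (78.9%, against 23.4% of all) and library 1 for 15 (15.8%, against 11.3% of all). In TPM library 4 was highest for 49, library 1 for 39, and library 3 was lowest for 80. Shares over all genes were not counted in TPM. The order of libraries 1 and 4 thus turned round with the scale for genes such as col-140 and col-184, while library 3 kept its low place. Other genes with this order were lbp-2, a fatty acid binding protein gene, at 1089, 922, 15.4, 1274 and 217 TPM, ttr-16, a transthyretin-related gene, at 1114, 759, 18.1, 1057 and 257 TPM, and far-1, a fatty acid and retinol binding protein gene, at 326, 222, 42.6, 267 and 70.5 TPM. Of the uterine genes, ule-4 was at 1996, 1216, 144, 3238 and 360 TPM. The SDs of log2 CPM were 2.48 for ule-2, 1.90 for ule-4 and 1.13 for ule-1, each with this order of libraries. Those of ule-3 and ule-5 were 0.41 and 0.35. With library 3 left out, 83 of the 95 genes still had an SD of 1 or more, 22 of the 23 collagens and 8 of the 12 muscle markers among them, and the median SD of the collagens was 1.24.

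The largest SDs belonged to genes that were absent from some libraries. D1086.10 was at 1054, 584, 0, 1607 and 6.63 TPM and C35B1.4 at 447, 254, 0, 686 and 0 TPM. F42A8.1, C39E9.8 and Y48E1B.8 were likewise at or near 0 in library 3 and at 28.1 TPM or more in the other 4. These genes carry no role in the sources used here. The collagen gene col-94 was at 191, 53.5, 0, 27.4 and 3.48 TPM.

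**Figure D5:**
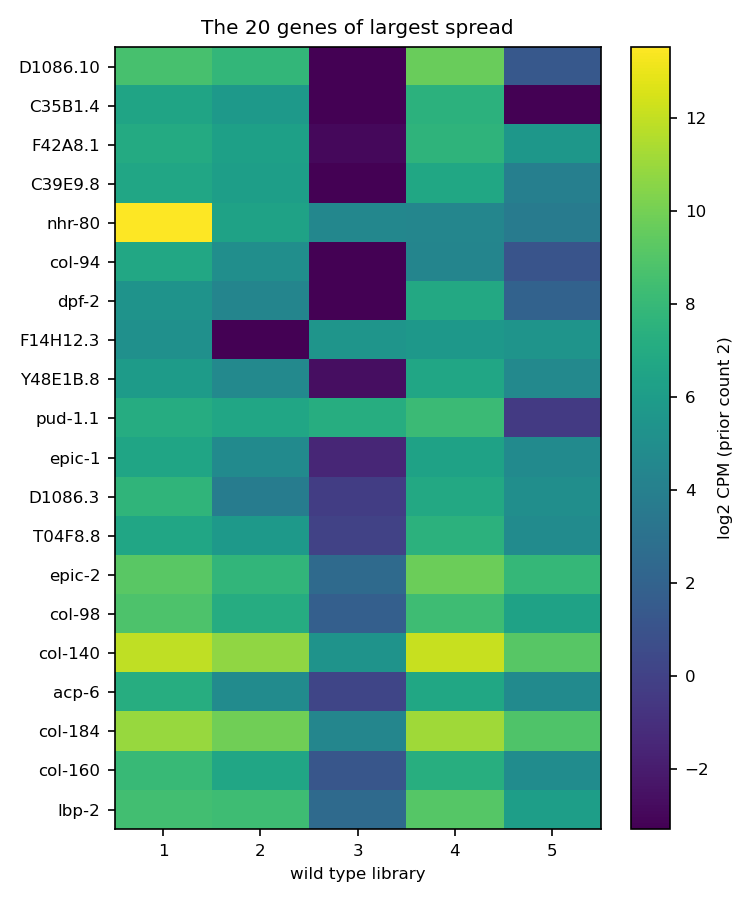
Log2 CPM (colour scale, prior count 2) of the 20 genes with the largest SD between the 5 wild type libraries, one column per library. Library 3 is darkest in most rows, nhr-80 is bright in library 1 only, F14H12.3 is dark in library 2 only and pud-1.1 in library 5 only.

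Some genes departed from the others in a single library. A count of genes at 10 CPM or more in 1 library and at least 16-fold below it in each of the others, a limit chosen after values were seen, gave 8 in library 1, 3 in library 2, 2 in library 3 and 0 in libraries 4 and 5. The reverse, low in 1 library only, held for 20 genes in library 3, 5 in library 2, 1 in library 5 and 0 in libraries 1 and 4. In library 1 the 8 included nhr-80, far-3, a fatty acid and retinol binding protein gene, and the collagens col-10 and col-117. They also included the inducible heat shock genes hsp-70, at 8.21, 0, 0.409, 0 and 0 TPM, and hsp-16.41, at 30.9, 0, 0, 0 and 0.825 TPM. The near copies hsp-16.48 and hsp-16.49 were each at 43.2, 25.9, 0, 1.46 and 1.30 TPM, so libraries 1 and 2 were high and library 3 had none. The constitutive heat shock genes hsp-1 and hsp-90 were at 1478 ± 264 and 1636 ± 351 TPM, with SDs of log2 CPM of 0.13 and 0.17.

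In library 2 the genes at or near 0 included pharyngeal ones. The pharyngeal myosin gene myo-2 was at 6.91, 0, 4.94, 5.27 and 3.24 TPM, and phat-7, a gene of the pharyngeal glands, at 82.2, 0, 64.2, 54.8 and 42.1 TPM. The gene pqn-75, which codes for a protein rich in glutamine and asparagine, was at 34.7, 0.695, 32.3, 21.1 and 20.1 TPM, F08D12.2 at 74.7, 0, 73.7, 122.1 and 39.9 TPM, and F14H12.3 at 69.4, 0, 75.7, 73.6 and 85.7 TPM. Library 2 was also the lowest in the whole list of 13 pharyngeal markers, of which phat-1, phat-2 and phat-5 had 0 counts in every library. The part of that list in these genes was not tested. In library 5, pud-1.1 was at 2.60 TPM, against 407 to 925 TPM in the other 4, whereas its near copy pud-1.2 was at 4820 TPM there. The split of reads between these near copies is uncertain.

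A smaller set had its lowest level in library 5 and its highest in library 4. In TMM-scaled CPM the lysozyme gene lys-7 was at 38.6, 85.8, 48.5, 143 and 12.1, T01D3.6 at 371, 485, 848, 1963 and 254, and C14C6.5 at 133, 283, 241, 610 and 51.3. Library 2 alone was high for pho-9, an acid phosphatase gene, at 25.1, 182, 17.9, 11.4 and 8.54 CPM and for the cytochrome P450 gene cyp-13A5 at 11.2, 108, 32.2, 10.8 and 20.8 CPM. These genes did not follow the order of libraries seen for cuticle and muscle.

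The 10 steadiest genes of the set had SDs of 0.06 or less. The smallest SD of log2 CPM was 0.03, for the exportin gene xpo-2 at 133, 137, 113, 105 and 145 TPM, and ani-1, an anillin that acts in cell division, followed at 101, 95.5, 93, 77.4 and 103 TPM. The 10 steadiest also held ucr-1, a core subunit of respiratory complex III, at 264 ± 30.5 TPM, dld-1, the dihydrolipoamide dehydrogenase, at 247 ± 18.7 TPM, and npp-8, a nuclear pore gene, at 107 ± 13.8 TPM. In TPM library 4 was the lowest for each of these 5 genes.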

How the data were processed

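RNA of dissected intestines was measured in 5 wild type libraries, and the other 10 libraries of the series were not used here. The authors quantified reads with kallisto 0.44.0 on build WBcel235 after bcl2fastq 2.20, per the submitters' processing notes. The annotation release is not given in the sources used here. The deposited tables hold estimated counts (expected counts, not normalized), TPM, and target and effective lengths in bases for 61451 targets, per the file headers. Targets carry only integers, read as line numbers, from 0, of the deposited transcript map. The lengths in the tables then matched Ensembl release 115 exactly for 99.96% of 27233 non-coding transcripts, against 53.05% with the map shifted by 1 line. Of 28895 coding transcripts, 99.55% were at least as long as their coding part, against 58.89%. Gene identities rest on that reading. Positions are from Ensembl release 115 on WBcel235, matched by gene ID for 46817 of 46904 genes, and 731 sequence names were replaced by current symbols of the same ID.

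Counts and TPM were summed per gene. Expected counts were rounded for edgeR 4.0.16 in R 4.3.3, which gave CPM with TMM scaling and a prior count of 2. The common biological coefficient of variation was 0.335 over 8531 genes. Shares are of all targets of a library. Libraries held 12182697 to 40045140 counts, and amplified reads without molecular identifiers are not independent molecules, so counting errors cover counting only. With 1 group there is nothing to compare, so no test was run. The spread step was tested on simulated data.

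Marker lists of 11 tissues, 40 gene families and 30 transcription regulators were used. All lists and members were chosen with earlier results of these data known. Genes to name were drawn by rule, and the text names only part of them. The rule took the 30 protein coding genes of highest mean TPM and the 3 genes of highest counts in each other biotype. It also took the 20 most and 10 least variable genes, and the 3 highest members of each family. The 5 highest of each marker list with markers at 0, the regulators, gas-1 and the cest-2 genes completed it. Further genes with an SD of 1 or more, or high or low in 1 library, were named after their values were seen. Promoter motifs were planned and could not be searched, since no sequences were used here. Alternatives were estimated counts for TPM, other detection limits, scalings and filters, short targets or yolk left out, DESeq2 1.42.0 size factors, and each library left out.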

Additional observations from a re-analysis of the deposited data

Results flagged for a closer look

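A library was marked where its gap to the nearest of the other 4 was more than 0.710 of the range of the 5. Of 293 measures read this way, 66 of groups of genes or libraries and 227 of named genes at 10 TPM or more, 19 were marked. Chance marks about 1 in 20 groups, and many of these measures share genes, so single marks carry little weight.

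Library 1 was marked most often. It was the highest for nhr-80, the nuclear receptor gene, at 13156 TPM against 14.8 to 90.8 TPM in the other 4. The same gene set the share of nuclear hormone receptors, 1.41% of TPM against 0.103% to 0.158%, and the summed level of the 30 transcription regulators, 14143 TPM against 917 to 1482 TPM. Library 1 was also highest for far-3 at 176 TPM, where the others had at most 0.680 TPM, for col-93 at 1411 TPM against 16.9 to 372 TPM, for col-94 at 191 TPM against at most 53.5 TPM, and for rpl-12 at 3616 TPM against 2893 to 3057 TPM. It was lowest for the gut genes cpl-1 at 2297 TPM against 3511 to 3903 TPM, ges-1 at 35.2 TPM against 68.9 to 80.2 TPM and ugt-22 at 225 TPM against 364 to 383 TPM, and for the desaturase gene fat-4 at 353 TPM against 480 to 528 TPM.

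Library 4 was lowest for wago-1 at 178 TPM against 308 to 338 TPM and for skn-1 at 76.2 TPM against 111 to 116 TPM. Library 5 was highest for the ribosomal protein genes rpl-3 at 3940 TPM against 2981 to 3203 TPM and rpl-7A at 3453 TPM against 2893 to 2957 TPM, and lowest for gas-1 at 61.6 TPM against 77.5 to 81.5 TPM. Library 2 was highest for zip-2 at 104 TPM against 59.2 to 67.1 TPM and lowest for F14H12.3 at 0 TPM against 69.4 to 85.7 TPM. Library 3 had the lowest share of counts in snRNA, 1.60e-05%, against 6.60e-05% to 8.23e-05%, a share that rests on very few reads. No cause of these gaps was tested.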

How the results depend on the processing

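No paired analysis was possible because the 5 libraries form 1 group and no result comes from a test. Estimated counts in place of TPM moved the yolk share from 8.52% to 27.4%, the ribosomal protein share from 8.62% to 3.39%, the share of the mitochondrial genome from 1.33% to 0.818%, and the number of genes that hold 50% of the RNA from 110 to 39. Leaving out targets under 200 bases moved the protein coding share from 85.8% to 93.4%, and leaving yolk genes out of the total moved it to 84.5%. With protein coding genes alone as the total, chosen after seeing the data, ribosomal proteins held 10.1% and the mitochondrial genome 1.55%. The number of genes with an SD of 1 or more, 95 at a mean CPM of 30, was 446 at 5 CPM and 41 at 100 CPM, where fewer genes are counted, and 92 to 98 under other scalings.

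Leaving out each library in turn gave yolk shares of 7.81% to 9.34%, ribosomal protein shares of 8.28% to 8.87%, mitochondrial genome shares of 1.29% to 1.40%, protein coding shares of 85.4% to 86.0%, 8536 to 8855 genes detected in the rest, 102 to 120 genes for 50% of TPM and 79 to 103 genes with an SD of 1 or more. The log2 range of the summed intestine markers, 0.70, was 0.40 to 0.70 and lowest without library 1, and that of muscle markers, 3.41, was 2.03 to 3.41 and lowest without library 3. That of cuticle markers, 5.59, was 2.83 without library 3, that of excretory cell markers, 3.66, was 1.46 without library 3, that of pharyngeal markers, 3.87, was 1.25 without library 2, and that of somatic gonad markers, 1.43, was 0.87 without library 4. Detection limits of 0.5 and 5 TPM gave 9092 and 6489 genes in all 5 libraries, and thinning gave 8421. Of 1924 further values of families, marker lists and single genes, 71 moved by more than 1 SD of the 5 libraries. Leaving out 1 of 5 libraries cannot move a mean that far, whatever its values. For such means the count of 71 therefore says nothing about how firm they are. The SD is also wide where 1 library sets it. When a library was left out, 22 means moved by over 1.5 times, 11 of them of genes at 10 TPM or more. That count, like the other forms of the cuticle and oocyte ranges, was chosen after seeing the data. Without library 1, nhr-80 was at 36.4 in place of 2660 TPM, nuclear hormone receptors held 0.120% in place of 0.379%, far-3 was at 0.309 in place of 35.5 TPM, col-94 at 21.1 in place of 55.1 TPM, col-93 at 205 in place of 446 TPM and D1086.3 at 71.1 in place of 144 TPM. In the smallest library 1 count of a 1000-base target was worth 0.141 TPM.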

Other observations

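Histone genes, whose main transcripts lack poly(A) tails, held 0.203% ± 0.0412 of TPM. Detection in all 5 libraries was seen for 31 of 81 histone genes, a share like that of all protein coding genes, 8217 of 20191. The highest histone genes were the linker genes hil-4 at 427 ± 100.1 TPM and hil-5 at 307 ± 64 TPM and the variant gene htz-1 at 272 ± 81.2 TPM. The 33 proteasome genes were all detected in every library and held 0.456% ± 0.100, lowest in library 4. Tubulins, led by tbb-2 at 1035 ± 209 TPM and tba-2 at 820 ± 166 TPM, were also lowest in library 4, at 0.210% against 0.265% to 0.346% in the other 4.

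Iron and metal storage genes were carried by 1 member each. Of the ferritins, ftn-2 was at 869 ± 146 TPM and ftn-1 at 147 ± 41.2 TPM, and of the metallothioneins, mtl-2 made up 94.3% of the level while mtl-1 was at 145 ± 49.9 TPM. Of the effector genes known from daf-16 and pathogen studies, dod-19 was at 983 ± 271 TPM and irg-8 at 889 ± 211 TPM. The summed share of superoxide dismutases and catalases had the smallest range of the 40 families, 1.11-fold over libraries, with sod-1 at 186 ± 23.5 TPM and ctl-2 at 91.9 ± 19.2 TPM. The 4 members with a mean CPM of 30 or more had a median SD of log2 CPM of 0.28, against 0.26 for all genes.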
